A study of Mus musculus with 4 samples.

Results

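Foxp1, Pou3f1 and Aldh1a2 are genes of motor column identity in the cervical spinal cord, and the contacts that their promoters and the domains around them made in Micro-C libraries are described here. The 3 genes were chosen by name. The members are the genes with the pairs of 8 kb bins that both lay in 1 window per gene on the mouse assembly GRCm38, namely chromosome 6 from 98.5 to 99.9 Mb for Foxp1, chromosome 4 from 124.3 to 125 Mb for Pou3f1 and chromosome 9 from 70.9 to 71.6 Mb for Aldh1a2. They are 3 of 20807 protein-coding genes annotated on the autosomes, 15879 of which had enough contacts for a promoter level and serve as the background. Contacts of the bins that hold the gene starts were counted by distance and so took in bins past the window edge for all 3 genes.

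Foxp1 is a forkhead transcription factor that acts with Hox proteins as a cofactor, and its level helps to set which column a spinal motor neuron joins. Pou3f1, also called Oct6 or SCIP, is a POU domain transcription factor found in subsets of limb-level and phrenic motor neurons. Aldh1a2, also called Raldh2, is an enzyme that makes retinoic acid from retinaldehyde. It is made by motor neurons at limb levels and supplies a signal for their subtypes. A gene can be contacted by sequence far away on the chromosome, most often within a domain whose edges, called boundaries, are crossed by few contacts.

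Micro-C, in which chromatin fixed with disuccinimidyl glutarate and formaldehyde is cut by micrococcal nuclease and ligated, was performed on 4 groups with 1 library each: WT ESCs, PATZ1 KO ESCs, WT MNs and PATZ1 KO MNs. The ESCs were E14 mouse embryonic stem cells kept in LIF and 2i medium, and the MNs were cervical motor neurons made from them through embryoid bodies, with 1 µM all-trans retinoic acid and 0.5 µM smoothened agonist. The KO was made by CRISPR/Cas9 and carried in single-cell clones, so the KO libraries may differ from WT by clone as well as by PATZ1. Which clone was used, and whether MNs were sorted, was not given in the sources used here. Micro-C reads DNA contacts only, so neither the labelled cell type nor the loss of PATZ1 could be checked by expression, and the number of cells of other types in the MN libraries cannot be told apart from a change in MNs. The question for each gene was whether its promoter and domain contacts differed between WT and PATZ1 KO in either cell state, and between the cell states.

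Because each group had 1 library, no test was possible, and every 95% interval covers counting error only. The lists held 110991835 to 170946673 contacts per library. A pair was listed if WT and KO each held a contact, so pairs found in WT alone or in KO alone are absent, which bears most on distant pairs with few contacts. Columns of the lists were numbered and not named, and all directions rest on reading the first as WT and the second as PATZ1 KO. The start bin of Patz1 itself on chromosome 11 had levels of 0.770 and 0.549 in WT and KO ESCs and of 0.739 and 0.497 in WT and KO MNs, which does not check the deletion. Chromosome 6 had 1.58 to 1.65 times the contacts per Mb of the median autosome in the 4 libraries, chromosome 4 had 0.938 to 0.964 times and chromosome 9 had 0.992 to 1.01 times. Levels are therefore given as observed over expected, where the expected count is the mean over pairs equally far apart on that chromosome in that library and a level of 1 is the chromosome's average.

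Foxp1 (ENSMUSG00000030067.17) lies on the minus strand at chr6:98925338-99522721 and spans 597 kb. Its 12 coding transcripts start in 5 different bins. The outermost start falls in the bin chr6:99520001-99528000, called its start bin, and the innermost start lies in the bin chr6:99024001-99032000. Pou3f1 (ENSMUSG00000090125.3) is a short gene of 3.85 kb on the plus strand at chr4:124656807-124660655. Aldh1a2 (ENSMUSG00000013584.5) lies on the plus strand at chr9:71215789-71296243 and spans 80.5 kb. The windows held 142608 to 145767 contacts in ESCs and 98667 to 102752 in MNs for Foxp1, 35894 to 36255 and 23436 to 27975 for Pou3f1, and 34082 to 35660 and 22927 to 24700 for Aldh1a2.

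The sequences just before 4 RefSeq starts are shown because contacts of the bins that hold them are followed in the results. They are from RefSeq on GRCm38.p6 and end before an annotated exon. That in the Foxp1 start bin lies inside the gene, downstream of the outermost start at 99522721. CG dinucleotides, which cluster in CpG island promoters, are in capitals. The table used here held no entry for Pou3f1.
Foxp1 RefSeq start in the start bin (chr6:99521163-99521243, minus strand): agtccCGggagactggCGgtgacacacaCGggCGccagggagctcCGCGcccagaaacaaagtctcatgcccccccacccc
Foxp1 inner start at 99266515 (chr6:99266533-99266765, minus strand): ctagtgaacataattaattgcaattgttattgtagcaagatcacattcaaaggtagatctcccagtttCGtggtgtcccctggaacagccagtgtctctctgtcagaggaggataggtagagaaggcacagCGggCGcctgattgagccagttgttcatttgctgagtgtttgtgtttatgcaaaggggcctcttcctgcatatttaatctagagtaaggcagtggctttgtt
Foxp1 innermost start (chr6:99028314-99028548, minus strand): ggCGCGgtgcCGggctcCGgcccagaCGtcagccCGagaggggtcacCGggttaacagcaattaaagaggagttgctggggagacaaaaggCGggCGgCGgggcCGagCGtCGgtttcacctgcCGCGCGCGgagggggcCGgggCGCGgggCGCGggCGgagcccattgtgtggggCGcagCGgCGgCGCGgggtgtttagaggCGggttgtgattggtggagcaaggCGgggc
Aldh1a2 start (chr9:71215539-71215788, plus strand): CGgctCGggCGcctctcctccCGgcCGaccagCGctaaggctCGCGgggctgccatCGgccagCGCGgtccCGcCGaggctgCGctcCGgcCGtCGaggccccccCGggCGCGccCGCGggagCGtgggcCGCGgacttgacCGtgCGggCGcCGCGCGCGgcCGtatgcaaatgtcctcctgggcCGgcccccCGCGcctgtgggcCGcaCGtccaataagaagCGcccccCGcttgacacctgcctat
These stretches held 6 CG in 81 bases, 3 in 233 bases, 30 in 235 bases and 40 in 250 bases, or 7.41, 1.29, 12.8 and 16 per 100 bases, against a median of 2.40 per 100 bases in 250 bases before 32851 RefSeq starts. The G-rich string GGGGNGGGG, searched on both strands, matched 1 time in the 250 bases before that Foxp1 RefSeq start in the start bin and not in the other 3 stretches, and 20.6% of all 32851 stretches held it.

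The core letters of the motif of CTCF, the insulator protein at many domain boundaries, were also searched on both strands, as CCNNNAGGNGGC, in the start bins, in the boundary bins and in 5 partner bins described with the results. Of 299367 bins of the autosomes, 16.5% held this string. The start bin of Foxp1 held 2 matches, the bin of its innermost start 1, another partner bin 2, the bin at its boundary 1 and the start bin of Pou3f1 1. No match was found in the start or partner bin of Aldh1a2 or in the other boundary bins. The sites below have the core in capitals, and each lies outside annotated exons.
Foxp1 start bin (chr6:99525597-99525626, minus strand, in an intron of Gm20696): gttttatcaCCAAAAGGTGGCgtcctaccc
Foxp1 start bin (chr6:99527621-99527650, minus strand, in an intron of Gm20696): tgtcagttgCCTAAAGGGGGCgctggggac
Foxp1 innermost start bin (chr6:99030478-99030507, minus strand, in an intron of Foxp1): gtggactggCCTCCAGGTGGCctctgggct
Foxp1 boundary bin (chr6:99644375-99644404, plus strand, in an intron of Eif4e3): tagatcatcCCTTCAGGAGGCaaagggctg
Pou3f1 start bin (chr4:124663334-124663363, plus strand, past the end of Pou3f1): gtttcaggcCCCAAAGGAGGCaatcctgtt
A match of letters is no evidence of binding, which was not measured in these libraries.

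Promoter contact was close to or above the median of all genes for Foxp1 and Aldh1a2, and for Pou3f1 it was close to the median except in KO MNs, where it was lower. All 3 genes had a lower value in PATZ1 KO MNs than in WT MNs, with a counting interval of the ratio below 0 for Foxp1 and Pou3f1, but not for Aldh1a2. The interval lay below 0 for 28.8% of all genes and above 0 for 8.01%. The promoter contact level is the number of contacts of the start bin with bins 24 to 400 kb away, over the expected number. Foxp1 had 614 contacts in WT ESCs, 538 in KO ESCs, 400 in WT MNs and 336 in KO MNs, which gave levels of 1.10, 1.03, 1.18 and 0.966. Pou3f1 had 307, 276, 229 and 151 contacts in the same order, with levels of 0.924, 0.926, 1.07 and 0.720. Aldh1a2 had 392, 362, 289 and 236 contacts, with levels of 1.16, 1.19, 1.32 and 1.14. By these counts WT MNs were the highest library for each gene and KO MNs the lowest. WT MNs were not above WT ESCs after iterative balancing, which brings every bin of a library to the same summed contact, with log2 ratios of -0.050, -0.33 and -0.19 for Foxp1, Pou3f1 and Aldh1a2. The contacts of a start bin are part of that sum, so balancing removes part of any change of the bin itself. In all 4 libraries the order was Aldh1a2, Foxp1, Pou3f1, but counting intervals of neighbours in that order overlapped except for Foxp1 and Pou3f1 in KO MNs. The median over the 15879 genes was 0.956, 0.916, 1.06 and 0.961. Among these genes Foxp1 stood at the percentiles 74.8, 68.2, 72.2 and 51.1, Pou3f1 at 43.6, 51.7, 52.3 and 7.10, and Aldh1a2 at 81.6, 86.8, 88.3 and 80.04.

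In MNs the KO over WT log2 ratio of the promoter level was -0.29 for Foxp1 (95% interval -0.51 to -0.080), -0.58 for Pou3f1 (-0.88 to -0.27) and -0.22 for Aldh1a2 (-0.47 to 0.037). The median of all genes was -0.14, and the ratios of the 3 genes stood at the percentiles 25.7, 2.22 and 37.7. None of the 3 passed a change of 1.5-fold in either direction, where 2.00% of all genes were lower and 1.09% higher by more than that. Pou3f1, at 1.49-fold, lay just inside this limit. In ESCs the ratios were -0.096 (-0.27 to 0.073), 0.0042 (-0.24 to 0.24) and 0.043 (-0.17 to 0.25) in the same order, against a median of -0.061. Again 0 of 3 passed 1.5-fold, against 0.309% of all genes lower and 0.0189% higher.

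The KO over WT ratios in MNs changed in size or direction after subtraction by base composition and after balancing. Genes of the same class of base composition as Foxp1 had a median ratio of -0.32, as did those of the class of Pou3f1 with -0.36 and of Aldh1a2 with -0.15. After that median was subtracted, the ratios in MNs were 0.023 for Foxp1, -0.21 for Pou3f1 and -0.069 for Aldh1a2. After balancing they were -0.098, -0.16 and 0.0040. Balancing removes part of any change of a start bin, so the balanced ratios cannot show whether there was one. Pou3f1 stood at the percentile 9.87 of all genes after the subtraction, where it had stood at 2.22 before. The cause of the difference between KO and WT MNs was not tested.

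**Figure D1:**
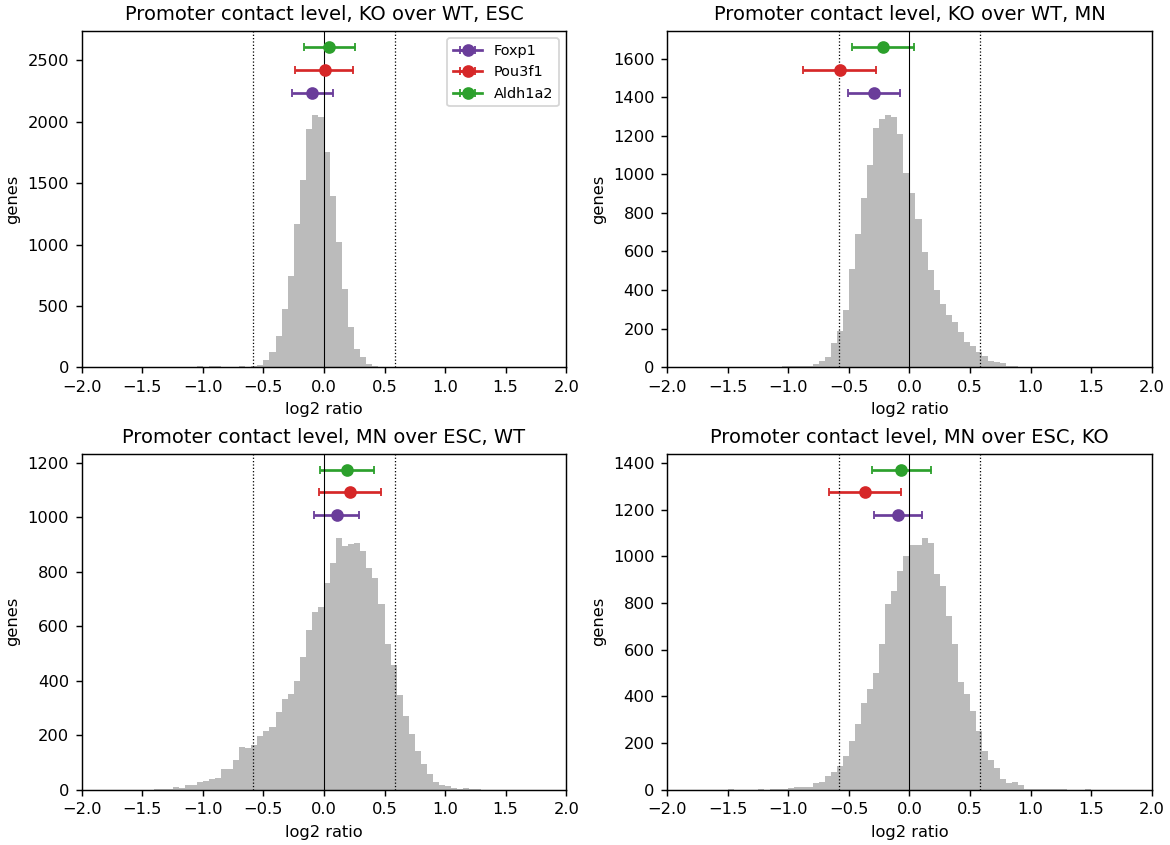
Histograms of the log2 ratio of the promoter contact level over 15879 genes in 4 comparisons, with Foxp1, Pou3f1 and Aldh1a2 as points with 95% counting intervals and 1.5-fold as dotted lines. Pou3f1 in KO over WT MNs, at -0.58, is the member farthest into a tail and lies at the edge of the dotted line, while all 3 genes lie near the centre in ESCs.

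Between the cell states, the promoter levels of Foxp1 and Aldh1a2 had ratios from counts with intervals that held 0 in both genotypes. For Pou3f1 the interval lay below 0 in KO and held 0 in WT. The WT ratio of Pou3f1 was also below 0 after balancing, as given above, and whether the genotypes differed was not tested. The MN over ESC log2 ratio in WT was 0.10 for Foxp1 (-0.082 to 0.29), 0.22 for Pou3f1 (-0.038 to 0.47) and 0.19 for Aldh1a2 (-0.032 to 0.41), beside a median of 0.16 over all genes, and stood at the percentiles 44.0, 56.8 and 54.1. In PATZ1 KO cells the ratios were -0.093 (-0.29 to 0.11), -0.36 (-0.66 to -0.073) and -0.066 (-0.31 to 0.17), beside a median of 0.070, at the percentiles 29.6, 7.87 and 32.5. Pou3f1 in KO cells was the only member with an interval that left out 0, and 14.0% of all genes had one below 0. Its ratio was -0.52 with partner bins inside the window alone, and its percentile was 6.12 after subtraction of the median of its base composition class. The same subtraction turned the WT ratios of Foxp1 and Pou3f1 to -0.27 and -0.19, at the percentiles 16.8 and 24.5, and left that of Aldh1a2 at 0.011. No member passed 1.5-fold, which 8.31% of all genes did upwards and 5.15% downwards in WT, and 3.85% and 1.75% in KO.

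What differed among the 3 genes was where the contacts went. For Foxp1 the side of the start bin that holds the gene took 64.0%, 64.5%, 69.8% and 67.9% of the 24 to 400 kb contacts in WT ESCs, KO ESCs, WT MNs and KO MNs. For Aldh1a2 the gene side took 69.1%, 60.8%, 73.0% and 74.6%. Pou3f1 was the reverse, with 25.4%, 22.5%, 17.9% and 19.2% of its contacts on the side that holds the short gene and the gene-rich stretch from Utp11 to Rspo1. An even split would give about 50%. Pou3f1 thus made most of its contacts with the stretch of lower coordinates, which holds a single other gene start, 3100002H09Rik, within 664 kb. On that side its level was 1.38 in WT ESCs, 1.44 in KO ESCs, 1.76 in WT MNs and 1.16 in KO MNs, and on the gene side it was 0.469, 0.416, 0.384 and 0.276.

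Contacts were then summed in blocks of 64 kb on each side of the start bins, a division made after the data had been seen. Of blocks with at least 20 contacts in the libraries compared, the interval of the KO over WT ratio left out 0 in 1 of 42 in ESCs, below 0, and in 0 of 37 in MNs. Over the blocks of all genes it lay below 0 in 2.62% and above in 1.15% in ESCs, and in 5.00% and 1.63% in MNs. For MN over ESC in WT the interval lay above 0 in 9 of 41 blocks and below in 1, against 13.7% and 6.79% of the blocks of all genes. In KO it lay above 0 in 5 of 39 and below in 3, against 10.3% and 6.10%. Pou3f1 gave 6 of the 9 in WT and 3 of the 5 in KO, out of 12 blocks in each, and 1 of its blocks was lower in KO. Neighbouring blocks and genes share contacts, so these shares are a description.

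**Figure D2:**
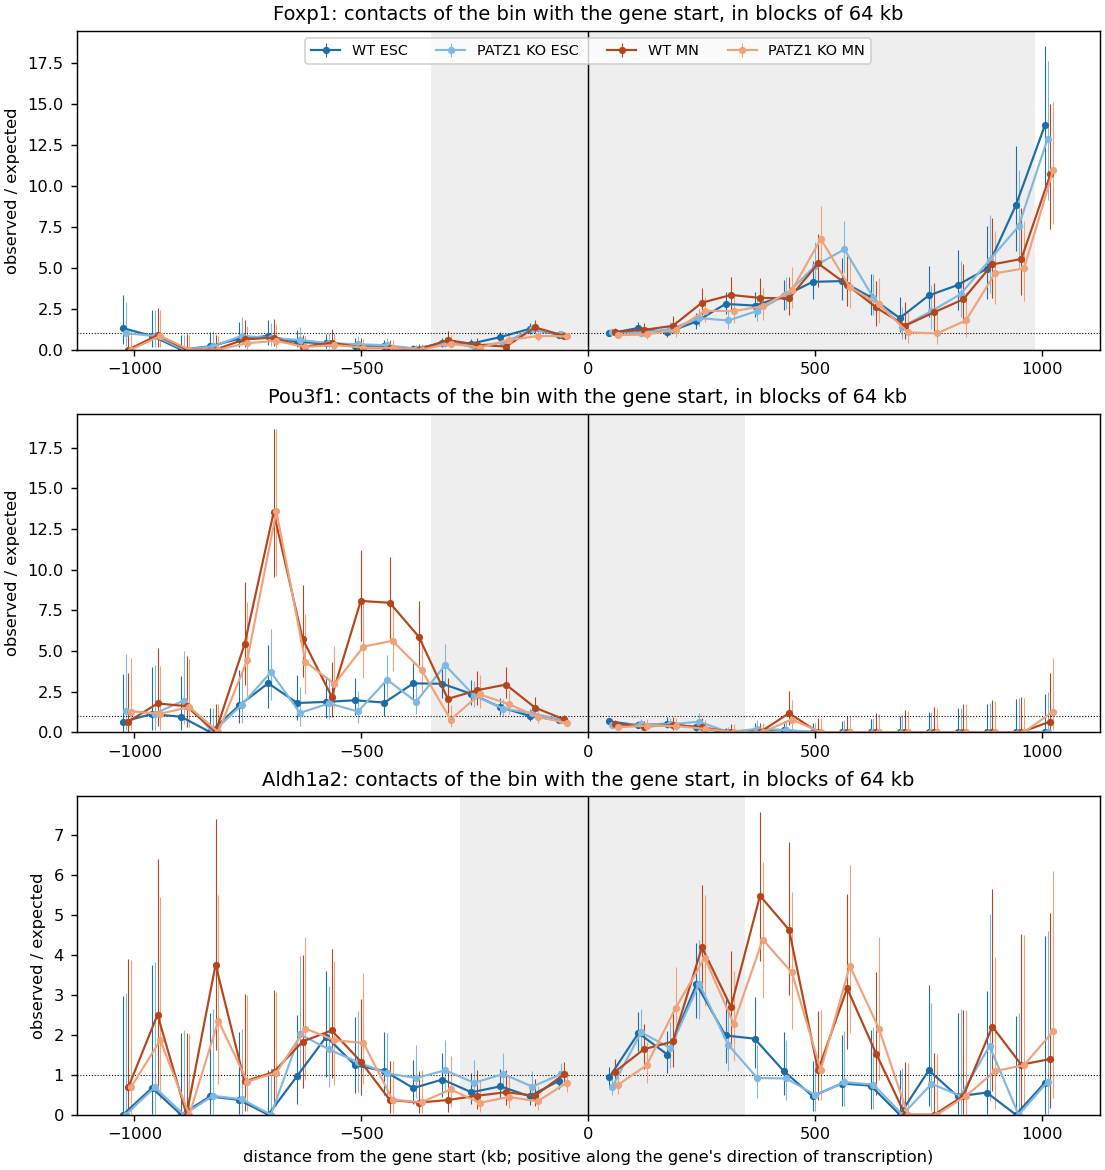
Contact level of each start bin, as observed over expected, in blocks of 64 kb against the distance from the start in kb, with positive values along the direction of transcription. Each line is 1 of the 4 libraries, bars are 95% Poisson intervals and the grey area is the window. Foxp1 shows raised contact around 472 to 600 kb and in the blocks on either side of that stretch, and its highest level in the last block, 984 to 1048 kb, in all 4 libraries. The peaks of Pou3f1 at 664 to 728 kb upstream and of Aldh1a2 at 344 to 408 kb downstream stand higher in both MN libraries.

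Along its own gene, the Foxp1 start bin made contacts near the distance average close by and well above it farther in. In the block 24 to 88 kb into the gene the level was 0.985, 1.06, 1.07 and 0.874 in WT ESCs, KO ESCs, WT MNs and KO MNs. In the block 472 to 536 kb, chr6:98992001-99056000, which holds the innermost Foxp1 start, the contacts were 53, 64, 43 and 57 and the level was 4.13, 5.12, 5.25 and 6.74. These levels lay at the percentiles 99.1, 99.7, 99.1 and 99.8 of all genes at the same distance. The block was singled out after its values had been seen, so these ranks are a description. The next block, 536 to 600 kb, had 44, 63, 28 and 28 contacts. After balancing its levels were 3.47, 5.07, 2.92 and 3.31, against 3.48, 4.41, 3.80 and 5.63 at 472 to 536 kb. The rise was therefore not confined to the block of the innermost start. At 280 to 344 kb the balanced levels were already 2.37, 1.57, 2.63 and 2.05. Past the end of the gene, in the block 664 to 728 kb, the level was only 1.92, 1.40, 1.46 and 1.05. It was then highest at the far end of the stretch examined, at 984 to 1048 kb, chr6:98480001-98544000, where 42, 39, 33 and 36 contacts gave levels of 13.7, 12.9, 10.7 and 10.9. That block reaches past the window edge and overlaps no protein-coding gene. After balancing its levels were 10.7, 10.5, 7.14 and 8.16. The block before it, at 920 to 984 kb, already had balanced levels of 7.28, 6.60, 4.19 and 4.13, so this rise too was not confined to a single block.

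In these far stretches the levels of Foxp1 contact were therefore above the distance average in every library. Only pairs with a contact in WT and in KO were listed, so a contact found in WT alone or in KO alone could not appear. Over the whole range of 408 to 1000 kb, a class also chosen after the data had been seen, Foxp1 had 328, 345, 221 and 230 contacts and levels of 2.18, 2.34, 2.04 and 2.03, at the percentiles 97.8, 98.7, 95.9 and 95.8 of all genes. Of 150 bins on both sides, 91 were listed in ESCs and 70 in MNs. The MN over ESC log2 ratio was -0.093 in WT (-0.35 to 0.16) and -0.20 in KO (-0.45 to 0.040), so a difference between the cell states over the whole range was not detectable at this depth. Within it, the block 536 to 600 kb into the gene had a ratio of -0.68 in KO (-1.38 to -0.021), from 63 and 28 contacts. In WT that ratio was -0.078 (-0.82 to 0.64).

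On the outer side, contact of the Foxp1 start bin was low past the neighbouring genes. In the block 88 to 152 kb away, which holds the starts of Eif4e3, a cap-binding protein, and of Gm20696, the level was 1.26, 1.23, 1.35 and 0.826. In the next block, with Gpr27 and Prok2, contacts numbered 30, 15, 4 and 13 and the level was 0.763, 0.405, 0.181 and 0.576. There the MN over ESC log2 ratio was -2.07 in WT (-4.04 to -0.57), which rests on 4 contacts in WT MNs, and 0.51 in KO (-0.68 to 1.68). At 216 to 280 kb the level was 0.362, 0.244, 0.291 and 0.115.

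At the scale of single bins, the rule for partner bins was at least 40 kb from the start bin and a mean of at least 10 contacts, and it left 5 bins for Foxp1, 1 for Aldh1a2 and none for Pou3f1. The leading partner of the Foxp1 start bin was the bin of its own innermost start, 496 kb away. It had 13 contacts in WT ESCs, 6 in KO ESCs, 7 in WT MNs and 15 in KO MNs, and a level of 7.88, 3.75, 6.86 and 14.4. The bin was chosen by its mean contacts over all libraries, to which the 15 in KO MNs counted. These levels and the ratios that follow are therefore a description, and the intervals do not allow for that choice. The KO over WT log2 ratio was -1.07 in ESCs (-2.75 to 0.42) and 1.07 in MNs (-0.31 to 2.60), and MN over ESC was 1.94 in KO (0.49 to 3.59) and -0.20 in WT (-1.77 to 1.23). Both bins hold a match of the CTCF core on the minus strand, shown above. The other 3 named partners, 40, 56 and 88 kb away, had levels from 0.480 to 2.67.

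The inner starts of Foxp1 had promoter levels above that of the outermost start in every library. The third, at chr6:99266515, had 1.40, 1.33, 1.71 and 1.56 in WT ESCs, KO ESCs, WT MNs and KO MNs, and stood at the percentiles 96.5, 94.2, 99.2 and 99.2. The innermost, at chr6:99028259, had 1.18, 1.08, 1.46 and 1.27. Starts of Foxp1 that lie 24 to 400 kb apart, the outermost among them, share contacts and are not independent. In WT all 4 inner starts were higher in MNs than in ESCs, with log2 ratios of 0.29 to 0.46 and intervals above 0, beside a median of 0.16 over all genes, of which 40.3% had an interval above 0. In KO the ratios were -0.17 (-0.35 to 0.017), 0.23 (0.066 to 0.40), 0.058 (-0.11 to 0.23) and 0.23 (0.048 to 0.41) from the second start to the innermost, beside a median of 0.070. In ESCs the KO over WT ratios of the 4 inner starts were 0.084, -0.082, 0.17 and -0.13. The interval of the fourth start lay above 0 (0.017 to 0.33), as it did for 2.98% of all genes, against 13.2% below 0, and those of the others held 0. In MNs these ratios were -0.42, -0.14, -0.23 and -0.21, at the percentiles 10.2, 50.4, 35.6 and 39.2 of all genes, whose median was -0.14. The interval lay below 0 in 3 of these 4, which was so for 28.8% of all genes.

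Pou3f1 had the clearest difference between the cell states, and it lay far from the gene. At 408 to 1000 kb, a range outside the window on both sides, the start bin had 67 contacts in WT ESCs, 72 in KO ESCs, 164 in WT MNs and 135 in KO MNs, and levels of 0.872, 0.981, 2.96 and 2.39. Both MN libraries were above both ESC libraries. The MN over ESC log2 ratio was 1.76 in WT (1.35 to 2.20) and 1.29 in KO (0.86 to 1.72), at the percentiles 98.2 and 94.0 of 15866 genes, whose medians were 0.30 and 0.25. Pou3f1 and Aldh1a2 were higher by over 1.5-fold in both genotypes and Foxp1 was not, so that 2 of 3 passed where 32.5% of all genes did in WT and 29.8% in KO. Far contact higher by 1.5-fold was thus common among genes. Of the 150 bins 31 were listed in ESCs and 50 in MNs, and with pairs listed in both cell states alone the ratio was 0.97 in WT and 0.45 in KO. After balancing it was 1.16 and 1.18.

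The peak of far Pou3f1 contact was the block 664 to 728 kb away, chr4:123936001-124000000, which lies outside the window and overlaps Rragc, a small GTPase of the pathway that senses amino acids. It had 11, 13, 37 and 38 contacts in WT ESCs, KO ESCs, WT MNs and KO MNs, with levels of 3.01, 3.70, 13.5 and 13.6. The MN over ESC log2 ratio was 2.17 in WT (1.17 to 3.29) and 1.88 in KO (0.94 to 2.91), and after balancing the levels were 3.56, 4.14, 10.3 and 13.4. In this block the levels of WT and KO were close in each cell state, and those of MNs were above those of ESCs. WT and KO of a cell state share a list that holds only pairs with a contact in both, so their likeness was in part set by the listing. The ESC and MN lists were made separately, and this block was not recomputed with pairs listed in both cell states alone.

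Nearer blocks with no gene start were also higher in WT MNs. At 408 to 472 kb, chr4:124192001-124256000, the contacts were 15, 25, 41 and 29 and the levels 1.82, 3.23, 7.96 and 5.62, with MN over ESC log2 ratios of 2.13 in WT (1.25 to 3.09) and 0.80 in KO (-0.021 to 1.63). At 472 to 536 kb the contacts were 13, 8, 35 and 23 and the levels 1.96, 1.27, 8.08 and 5.27, with ratios of 2.04 in WT (1.09 to 3.08) and 2.05 in KO (0.84 to 3.42). The near block 152 to 216 kb away was higher as well in WT, with a ratio of 0.94 (0.24 to 1.63), against 0.25 in KO (-0.60 to 1.08). At 344 to 408 kb the ratios were 0.97 in WT and 1.04 in KO, with intervals above 0. At 600 to 664 kb they were 1.67 in WT (0.40 to 3.08) and 1.88 in KO (0.32 to 3.70). The KO ratio there rests on 5 and 14 contacts, under the minimum of 20, and is not among the blocks counted above. One block went the other way in KO. At 280 to 344 kb, chr4:124320001-124384000, contacts numbered 39, 50, 16 and 6 and the levels were 2.98, 4.12, 2.05 and 0.777, with ratios of -2.41 in KO (-3.92 to -1.19) and -0.54 in WT (-1.48 to 0.33).

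On the gene side of Aldh1a2, the block with the highest level in ESCs was 216 to 280 kb away, chr9:71424001-71488000, which holds the start of Polr2m, an RNA polymerase II subunit gene, with 50, 46, 38 and 34 contacts and levels of 3.27, 3.28, 4.19 and 3.93. The single partner bin lies in that block, at chr9:71440001-71448000, 232 kb from the start bin. It overlaps no protein-coding gene and had 15, 10, 10 and 11 contacts with levels of 6.39, 4.70, 7.31 and 8.34. This bin too was chosen by its contacts. Neither the start bin nor this bin holds the CTCF core. Direct contact with the bin of the Polr2m start rested on few contacts, 7, 4, 4 and 4, with levels of 3.59, 2.22, 3.40 and 3.59.

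Farther downstream, contact was higher in MNs in several blocks. At 344 to 408 kb, chr9:71552001-71616000, with the start of Myzap, contacts numbered 20 in WT ESCs, 9 in KO ESCs, 36 in WT MNs and 28 in KO MNs, and the levels were 1.90, 0.919, 5.48 and 4.38. The MN over ESC log2 ratio was 1.53 in WT (0.70 to 2.39) and 2.25 in KO (1.13 to 3.52), and after balancing the levels were 2.21, 1.00, 4.43 and 4.32. The bin of the Myzap start itself held only 2, 1, 0 and 0 of the contacts in this block, so the higher contact in MNs was not with that bin. At 408 to 472 kb, chr9:71616001-71680000, which overlaps the cell junction gene Cgnl1, contacts were 9, 7, 25 and 19 with levels of 1.10, 0.906, 4.63 and 3.56. The block at 344 to 408 kb reaches past the window edge, and that at 408 to 472 kb lies outside the window. At 536 to 600 kb the contacts were only 4, 4, 12 and 14, with ratios of 2.02 in WT (0.30 to 4.11) and 2.19 in KO (0.52 to 4.25). Both comparisons there are under the minimum of 20 contacts and are not among the blocks counted above. Just past the gene, at 88 to 152 kb, contact was lower in KO MNs than in KO ESCs, with a ratio of -0.74 (-1.47 to -0.047), against -0.32 in WT (-0.95 to 0.29). Over 408 to 1000 kb Aldh1a2 had 58, 58, 94 and 88 contacts and levels of 0.807, 0.846, 1.66 and 1.56, with MN over ESC log2 ratios of 1.04 in WT (0.55 to 1.54) and 0.88 in KO (0.39 to 1.39).

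Upstream of Aldh1a2 the levels were low. They were 0.717, 0.939, 0.717 and 0.581 in WT ESCs, KO ESCs, WT MNs and KO MNs. The KO over WT log2 ratio was 0.39 in ESCs (0.028 to 0.75) and -0.30 in MNs (-0.81 to 0.20), and the MN over ESC ratio in KO was -0.69 (-1.15 to -0.25). KO ESCs were thus the highest library on this side.

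**Figure D3:**
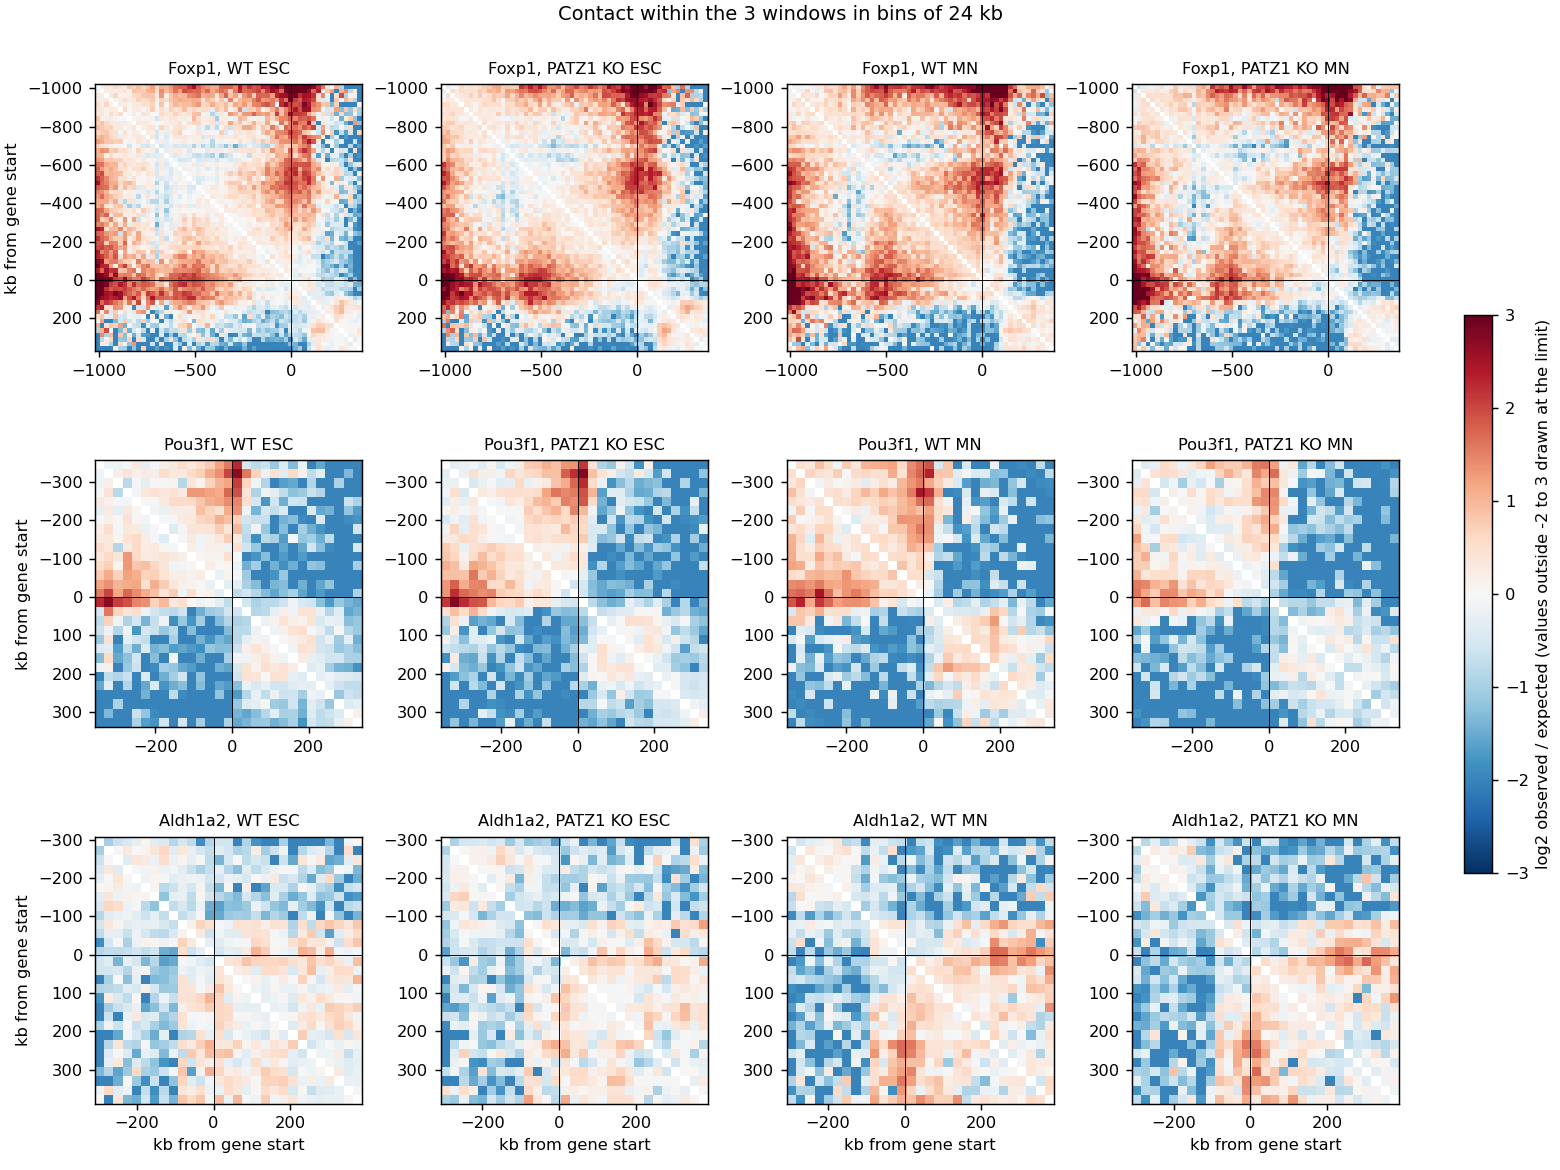
Contact maps of the 3 windows (top to bottom) in the 4 libraries (left to right), in bins of 24 kb, coloured by log2 of observed over expected with the scale limited to -2 and 3. Axes give the distance from the start bin in kb. The lines through the Foxp1 start cross raised contact 472 to 536 kb away and at the far edge of the window in all 4 libraries, and contact across the boundary 24 kb past Pou3f1 is low in all 4.

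The domains on which these contacts drew were delimited by an insulation score, the log2 of the mean contact in a 240 kb square spanning a bin over the chromosome mean, which is low at boundaries. A boundary was the lowest bin within 80 kb on each side with a score under -0.2. The windows held 4 boundaries. That of Foxp1 lay 120 kb outside its start bin, at chr6:99640001-99648000 in Eif4e3 and Gm20696, and had scores of -0.64, -0.60, -0.91 and -1.22 in WT ESCs, KO ESCs, WT MNs and KO MNs. That of Pou3f1 lay only 24 kb past the start bin, at chr4:124680001-124688000 in Utp11, a ribosomal RNA processing gene, with scores of -1.37, -1.43, -1.25 and -1.46. That of Aldh1a2 lay 104 kb upstream, at chr9:71104001-71112000 in the water channel gene Aqp9, with -0.69, -0.64, -0.94 and -1.03. In the Aldh1a2 window 2 of 87 bins were left out for low coverage, 128 kb upstream and 216 kb downstream of the start bin. The first lies close to this boundary and the second in the block 216 to 280 kb away. All 3 boundaries were called in all 4 libraries. The boundary at Pou3f1 was the deepest of them in every library and lay on the side where the start bin made few contacts.

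The remaining boundary, at chr4:124856001-124864000 with the start of Maneal, was called in both ESC libraries and in neither MN library. Its scores were -0.72, -0.83, -0.11 and -0.39. The MN minus ESC difference in WT was 0.62 (0.51 to 0.73), the 1 of 4 boundaries past 1.5-fold in WT, which 21.4% of 4503 ESC boundaries passed in either direction. In KO it was 0.44 (0.31 to 0.56). After balancing the WT difference was 0.17. At the Foxp1 boundary the MN minus ESC difference was -0.27 in WT (-0.37 to -0.17) and -0.62 in KO (-0.73 to -0.51), the 1 of 4 past 1.5-fold in KO, where 17.4% of boundaries passed. At Aldh1a2 it was -0.25 in WT (-0.38 to -0.12) and -0.39 in KO (-0.53 to -0.25). Both boundaries thus had lower scores in the MN libraries. At Pou3f1 it was 0.13 in WT (-0.027 to 0.28) and -0.026 in KO (-0.19 to 0.14). After balancing the WT differences at Foxp1, Pou3f1 and Aldh1a2 were -0.55, -0.35 and -0.46, so that at Pou3f1 changed direction, as it did with a square of 120 kb, to -0.073.

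Between the genotypes, the 3 lasting boundaries differed little in ESCs, with KO minus WT differences of 0.041 at Foxp1 (-0.040 to 0.12), -0.058 at Pou3f1 (-0.20 to 0.084) and 0.055 at Aldh1a2 (-0.055 to 0.16). In MNs the difference was -0.31 at Foxp1 (-0.44 to -0.19), at the percentile 5.94 of 4615 boundaries. It was -0.21 at Pou3f1 (-0.39 to -0.036) and -0.084 at Aldh1a2 (-0.24 to 0.070). The Maneal bin differed by -0.10 in ESCs and -0.28 in MNs. None of the 4 passed 1.5-fold in either cell state, where 0.200% of boundaries did in ESCs and 0.0867% in MNs. After balancing, the MN differences were -0.048 at Foxp1, 0.18 at Pou3f1 and 0.10 at Maneal, so their direction or size changed. Contacts across a boundary are part of the sums that balancing makes equal, so balancing removes part of any change there. The cause of these differences was not tested.

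**Figure D4:**
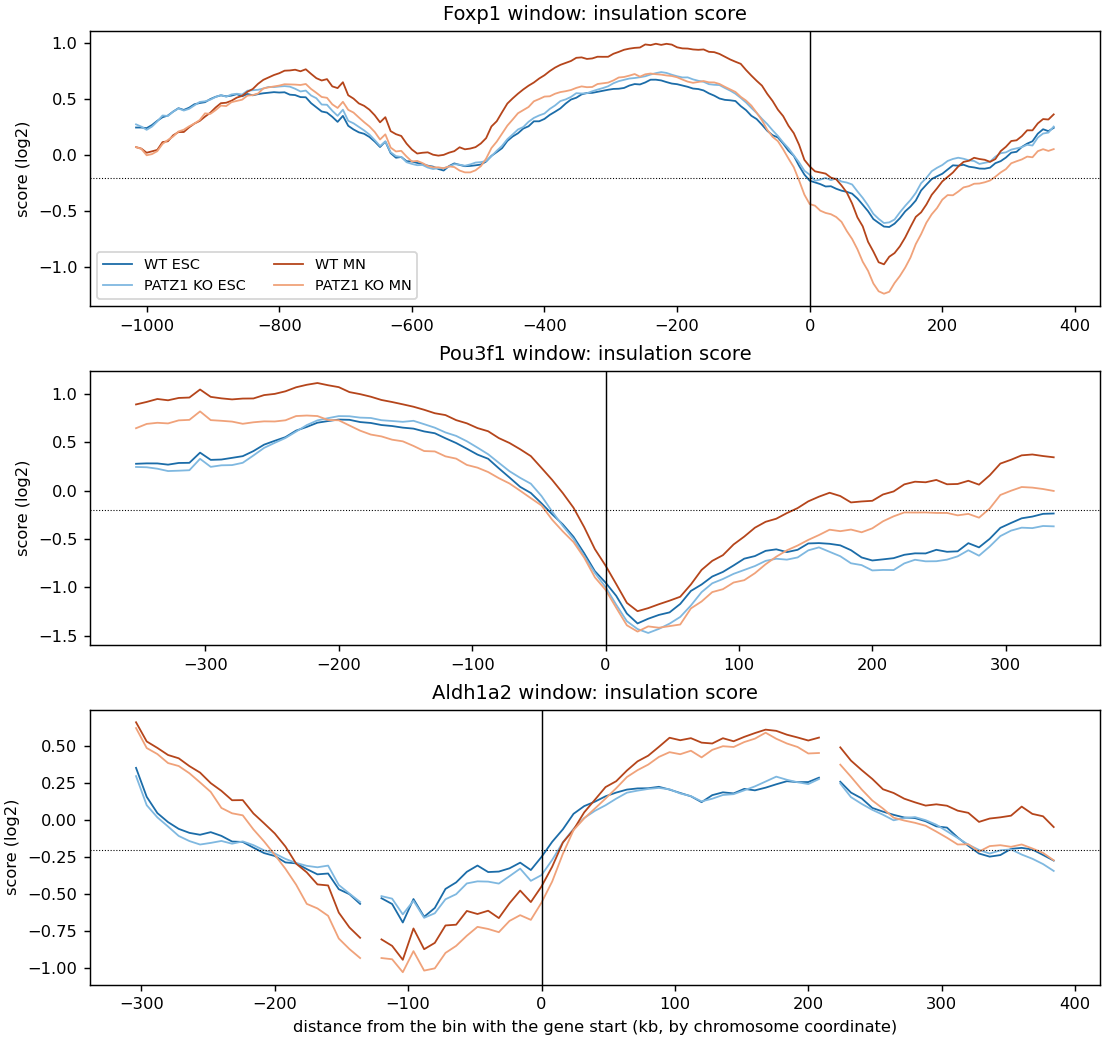
Insulation score of each 8 kb bin against its distance in kb from the start bin along the chromosome, 1 panel per gene and 1 line per library, with the boundary limit of -0.2 dotted. The start bin of Pou3f1 lies on the flank of the deepest minimum, which reaches -1.25 to -1.47 in the 4 libraries, and the minimum 200 kb from it is shallow in MNs.

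The domain of each gene was taken between the boundaries that flank the start bin in WT ESCs, and each extends past its window on 1 side. The far boundary of the Foxp1 domain, at chr6:98080001-98088000, was called in WT ESCs and KO MNs only, while those of the other domains were called in all 4 libraries. Its scores were -0.21, -0.16, -0.72 and -0.82 in WT ESCs, KO ESCs, WT MNs and KO MNs, so both MN libraries were lower at this bin than both ESC libraries, whether or not it was called. The far boundary of Pou3f1 had -0.96, -1.09, -1.30 and -1.46. That of Aldh1a2 went the other way, with -0.53, -0.50, -0.20 and -0.40. Its MN minus ESC difference was 0.33 in WT (0.22 to 0.43) and 0.10 in KO (-0.014 to 0.22). The Foxp1 domain, chr6:98088001-99640000, had levels of 1.40, 1.45, 1.64 and 1.51 in WT ESCs, KO ESCs, WT MNs and KO MNs. The Pou3f1 domain, chr4:123912001-124680000, had 1.28, 1.31, 1.74 and 1.41. The Aldh1a2 domain, chr9:71112001-71616000, had 1.08, 1.07, 1.21 and 1.10. For all 3 the WT MN library was highest. The far boundary of the Pou3f1 domain lies in a bin with the start of Mycbp, and the Rragc block of raised contact with the gene lies just inside it. The start bin and that block thus lie at opposite ends of the same domain.

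In MNs the KO over WT log2 ratio of contact within the domain was -0.13 for Foxp1 (-0.14 to -0.11), -0.30 for Pou3f1 (-0.34 to -0.27) and -0.14 for Aldh1a2 (-0.19 to -0.082). In ESCs it was 0.048 (0.034 to 0.062), 0.041 (0.011 to 0.072) and -0.015 (-0.060 to 0.031). Between the cell states, the ratio of MN over ESC was 0.23, 0.45 and 0.16 in WT and 0.059, 0.11 and 0.036 in KO, where the interval of Aldh1a2 held 0 (-0.015 to 0.088). Within the bodies of genes of at least 80 kb, the median MN over ESC ratio was 0.12 in WT and 0.032 in KO. Balancing brought the KO over WT ratios of the domains in MNs and their MN over ESC ratios in WT nearer to 0. In MNs the KO over WT ratios were then 0.0068, -0.0047 and 0.011, and the MN over ESC ratios in WT were 0.080, 0.080 and -0.031. Contact within a domain is part of the summed contact that balancing makes equal. A change over a whole domain is therefore partly removed by it, and the balanced ratios cannot show whether there was one. Within the body of Foxp1, the level was 1.30, 1.36, 1.65 and 1.38, and the KO over WT ratio in MNs of -0.26 stood at the percentile 27.4 of 2984 genes of at least 80 kb. Within Aldh1a2 it was 1.21, 1.24, 1.28 and 1.18. How the summed contact of the bins came to differ between the libraries was not tested.

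**Figure D5:**
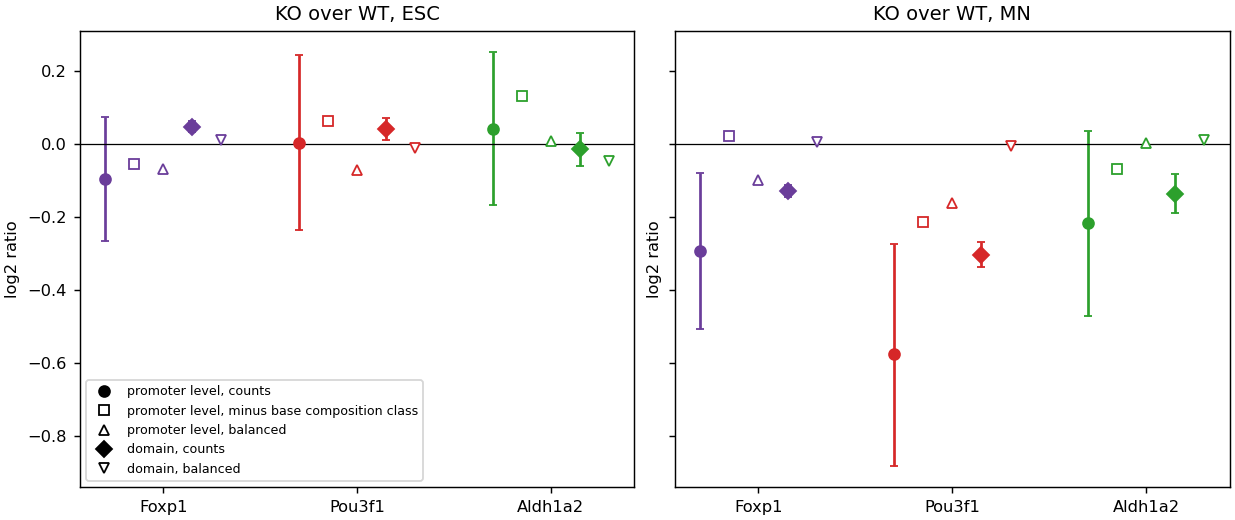
KO over WT log2 ratio of the promoter level and of contact within the domain, in ESCs and in MNs, computed from counts, after subtracting the median of genes of the same base composition, and after balancing. The MN ratios from counts lie below 0 for all 3 genes, at -0.58 to -0.13, while the balanced ratios lie between -0.16 and 0.011.

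Other genes of the same pathways were counted in the same way. Of 27 other motor column and pool genes, 16 genes of retinoid synthesis and response with a level and 7 family members with one, none passed 1.5-fold for KO over WT. The background was 0.309% of all genes lower and 0.0189% higher in ESCs, and 2.00% and 1.09% in MNs, so these counts are near the background and are no result about the lists. Rarg, Rxrb and Pou5f1 had too few contacts. The median ratio in MNs was -0.13, -0.24 and -0.11 for the 3 lists, against -0.14 for all genes, and in ESCs it was -0.079, -0.014 and -0.023, against -0.061. Between the cell states in WT, 2 of 27 motor column genes were higher in MNs and 1 lower by over 1.5-fold, against 8.31% and 5.15% of all genes. These shares are near the background. Lhx1, which marks lateral motor column neurons that project dorsally, had a level of 0.851 in WT ESCs and 1.38 in WT MNs (log2 ratio 0.70, 0.47 to 0.94). Lhx3, a factor of early and medial motor neurons, had 0.631 and 1.07 (0.77, 0.50 to 1.03). Cdh7, an adhesion molecule, had 1.09 and 0.689 (-0.66, -0.95 to -0.37).

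Of the 16 retinoid genes, 3 were higher and none lower in WT MNs by over 1.5-fold, against 8.31% and 5.15% of all genes, and in a list of this size that count is not read as a result. They were the retinoid receptor Rxra, with a log2 ratio of 0.65, the retinoic acid binding protein Crabp2 with 0.73, and Cyp26b1, which breaks down retinoic acid, with 0.73 (0.56 to 0.91) and levels of 0.970 and 1.61. Aldh1a2, which makes retinoic acid, had 0.19. Of the 7 family members 1, the Pou3f1 relative Pou3f2, was lower in WT MNs, at 0.506 against 0.972 (-0.94, -1.27 to -0.62). In PATZ1 KO cells none of the genes of the 3 lists passed 1.5-fold between the cell states, where 3.85% of all genes were higher and 1.75% lower. The medians for MN over ESC were 0.27, 0.27 and 0.27 in WT, where all genes had 0.16, and 0.12, 0.12 and 0.070 in KO, where all genes had 0.070.

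The genes whose promoter levels over the 4 libraries were most like those of the 3 genes lay on other chromosomes in all but 1 case. Likeness was the distance between log2 levels over the 4 libraries. For Foxp1 the nearest were Scnn1b, a sodium channel subunit, at 0.028, Klhdc2 at 0.034 and Pbp2, on the same chromosome, at 0.043. For Pou3f1 they were Fmnl1 at 0.042, Ces3a at 0.063 and Angel2 at 0.069, and for Aldh1a2 they were Tigit at 0.044, Tmem212 at 0.048 and Mbnl2, a splicing factor, at 0.057. None of these 9 genes is in the 3 lists.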

How the data were processed

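Micro-C libraries were prepared with the Dovetail kit from an independent pool of cells per group, and Dovetail ran the alignment, the contact matrices and the comparison of WT with PATZ1 KO by HiCcompare. Per the labels, the genome build was mm10, whose chromosomes match GRCm38. The aligner and its version were not given in the sources used here. The deposited files are 2 lists of pairs of 8 kb bins, for ESCs and for MNs. Their interaction frequencies are counts of contacts that the authors did not scale. The lists also hold an adjusted signal, for which the authors normalized WT and KO of a cell state together by distance, and which was used here only as an alternative within a cell state. The authors' own comparison columns, which hold log2 ratios, correction, mean, scores and p-values, were not used. The columns of other samples numbered 0.

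Contacts were divided by the expected number per library, chromosome and distance, over usable bins with at least 10% of the median coverage. Genes needed a mean of at least 200 contacts over the 4 libraries. GENCODE M21 gene starts were used. Ratios have exact conditional binomial intervals, levels Poisson intervals and shares exact Clopper-Pearson intervals, all at 95%. Base composition was split into 20 classes. Python 3.11.15, NumPy 2.4.6, pandas 2.3.3, SciPy 1.17.1 and Matplotlib 3.10.9 were used. Of the steps, only the ratio of promoter levels was tested on simulated counts.

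Groups came from the sample titles, with 1 library in each of 4 groups. Besides the 3 genes, the text names neighbours whose start lies in a boundary or partner bin, up to 4 partner bins per gene, the 3 nearest genes per gene by level, and listed genes past 1.5-fold. Genes in the 64 kb blocks were named after their values were seen. The genes and lists were chosen with earlier results of these data known. Alternatives changed the expected count, the distances, the viewpoint, the pairs, the square, the minimum count and the scaling. Replicates could not be left out.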

Additional observations from a re-analysis of the deposited data

Results flagged for a closer look

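Contact within the domain differed between PATZ1 KO and WT in opposite directions in the 2 cell states for Foxp1 and for Pou3f1. The log2 ratio of KO over WT for Foxp1 was 0.048 with the ESC libraries and -0.13 with the MN libraries, which is a difference of -0.18, MN minus ESC. For Pou3f1 the ratios were 0.041 and -0.30, and the difference was -0.34. No ratio over the domains of other genes was computed. Within the bodies of genes of at least 80 kb, the median ratio was -0.011 in ESCs and -0.090 in MNs, so contact in KO MNs was also lower at the median of these genes. With 1 library in each group the difference between the cell states was not tested. After iterative balancing the ratios were 0.013 in ESCs and 0.0068 in MNs for Foxp1, and -0.011 and -0.0047 for Pou3f1, so the opposite directions were not seen for either domain once every bin had the same summed contact. Balancing removes part of any change over a whole domain, so these values do not decide whether the directions differed.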

How the results depend on the processing

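Of 250 recomputed values of 50 results, 179 stayed within their counting interval (for numbers of genes, within 1.5 times), 50 moved by more, and 21 changed sign from a value whose interval left out 0. Another 28 changed sign from a value whose interval held 0, whether or not they stayed within it. No paired analysis was possible because each group had 1 library. Balancing, subtraction by base composition, partner bins within the window and all alternatives for the class of 408 to 1000 kb were chosen after seeing the data. The cause of each change was not tested, except that dividing a count once by the coverage of both bins removes a regional change of contact more than once. Balancing also removes part of a change over a region or of a single bin, because their contacts are part of the sums made equal. Depth limits single pairs and the far blocks most.

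Values are log2 ratios. With iterative balancing, the promoter level of Pou3f1 was -0.16 for KO over WT in MNs and -0.33 for MN over ESC in WT, that of Aldh1a2 was -0.19 for MN over ESC in WT, and the class of 408 to 1000 kb of Pou3f1 was 1.16 for MN over ESC in WT. Within the domains it gave 0.013 and 0.0068 for Foxp1, -0.011 and -0.0047 for Pou3f1 and, in MNs, 0.011 for Aldh1a2 for KO over WT, and 0.080, 0.080 and -0.031 for MN over ESC in WT. The boundary differences in MNs were -0.048 at Foxp1, 0.18 at Pou3f1 and 0.10 at Maneal, that in ESCs at Foxp1 was -0.047, and MN minus ESC in WT gave -0.55 at Foxp1, -0.35 at Pou3f1, 0.17 at Maneal and -0.46 at Aldh1a2. Division by coverage gave, within the domains for KO over WT, -0.031 and 0.17 for Foxp1 and -0.051 and 0.31 for Pou3f1 in ESCs and MNs, and 0.15 for Aldh1a2 in MNs. For MN over ESC it gave -0.12 in WT and 0.088 in KO for Foxp1, -0.31 and 0.052 for Pou3f1 and, in WT, -0.22 for Aldh1a2. At the boundaries it gave -0.13 in ESCs and 0.20 in MNs at Foxp1, 0.52 at Pou3f1, 0.47 at Maneal and 0.16 at Aldh1a2 in MNs, and -0.84, -0.78, -0.28 and -0.63 for MN minus ESC in WT.

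Subtracting the median of the base composition class gave promoter ratios of 0.023 for Foxp1 and -0.21 for Pou3f1 for KO over WT in MNs, and -0.27 and -0.19 for MN over ESC in WT. A viewpoint of 3 bins gave 0.098 for Foxp1 for KO over WT in ESCs and 0.30 for MN over ESC in WT. Pairs listed in both cell states gave, for MN over ESC, 0.18 in WT and -0.0087 in KO within the Foxp1 domain, 0.33 and -0.037 within that of Pou3f1, and 0.97 and 0.45 for Pou3f1 at 408 to 1000 kb. An expected count over all autosomes gave 0.095 in ESCs and -0.082 in MNs for KO over WT within the Foxp1 domain, -0.21 within that of Aldh1a2 in MNs, and for MN over ESC 0.22 in WT and 0.042 in KO for Foxp1, 0.51 and 0.16 for Pou3f1 and 0.22 in WT for Aldh1a2. Distances from 8 kb gave 0.22 and 0.033 for Foxp1 and 0.42 and 0.035 for Pou3f1 for MN over ESC in WT and KO. A square of 120 kb gave -0.15 at Foxp1 and -0.073 at Pou3f1, and a square of 480 kb -0.37 at Foxp1 and -0.064 at Aldh1a2, for MN minus ESC in WT. With a minimum mean of 20 contacts, 19954 genes had a level, of which 6 were higher in KO ESCs, 508 lower in KO MNs, 2049 higher in WT MNs than in WT ESCs and 507 lower in KO MNs than in KO ESCs by over 1.5-fold, in place of 3, 317, 1320 and 278.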
